A study of Daphnia magna with 12 samples.

Results

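In whole Daphnia magna, 155 of the 4318 measured array probes (3.59%) were set apart by 1 pool of unexposed animals, in which they read higher than the mean of the other unexposed pools by a median of 5.40-fold. They were chosen by their own values: the log2 ratio of blank pool 2 had to lie at least 1.5 above the mean of blank pools 1, 3 and 4, and above each of them. A further clause would have left out probes that collapsed in ZnCl2 pool 2 and ZnO pool 4. It left out 0 of the 155, so in effect the 4 blank arrays alone chose the members. Their height in blank pool 2 is therefore a description and not a finding, and the results below turn on the 8 zinc arrays, which took no effective part in the choice.

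The animals were sampled at an age of 96 h, as whole-body extracts. Animals of the blank group were kept in test medium with green algae as food. Those of the other groups also received ZnCl2, a soluble zinc salt, or nanoparticles of ZnO for 96 h, each at its EC10 for immobilisation (the concentration expected to immobilise 10% of the animals), with medium and metal renewed after 48 h. Each of the 3 groups held 4 pools of 40 daphnids, and all 12 pools were compared on 2-colour arrays with 1 zinc reference, to which the 3 kinds of sample contributed in equal aliquots. In each group, pools 1 and 2 carried the green dye Cy3 and pools 3 and 4 the red dye Cy5; the reference carried whichever dye the pool did not. The labels give no strain, clone or culture for a pool, so each p-value is set against a spread between pools that could be technical.

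Daphnia magna is a freshwater crustacean that usually reproduces by cloning, grows through repeated moults and is a standard animal for testing the toxicity of metals. Zinc is an essential metal that becomes toxic in excess, and ZnO particles release zinc ions as they dissolve. A pool of such animals averages over individuals. In an extract of whole animals, a lower level can mean fewer cells of a type or less RNA per cell, and these cannot be told apart. None of the probe identifiers matched the 28335 genes of the reference table, so the probes are given by identifier, with no gene name, role or sequence. Every probe of the table carries its own identifier number, so no 2 members are listed as probes of 1 numbered target.

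The deposited values are log ratios, taken here as log2 of exposure sample over reference. The table states neither base nor direction. If the reference holds every pool in equal parts, ratios must average below 0 by an amount set by how unlike the arrays are. Over all probes, the slope of observed on expected averages was 0.80 for this reading. It was 0.57 if the base were natural, 0.30 if it were log10 and -0.58 if the ratio were turned round. The 155 members averaged -0.25 over the 12 arrays where -0.32 was expected, and 147 of them averaged below 0. Array medians over all probes lay between -0.06 and 0.02 and their SDs between 0.32 and 0.62. The lowest correlation between arrays of the same dye was -0.32, between blank pool 2 and ZnO pool 1. Without the 155 members it was -0.05 over the remaining 4163 probes. Between dyes, ZnO pool 1 and blank pool 4 correlated at -0.44 over all probes and at -0.71 without the members. Group differences in the Cy3 arrays and in the Cy5 arrays correlated at 0.53 for ZnO against blank and 0.66 for ZnCl2 against blank. For ZnO against ZnCl2 the value was -0.16. The labels state the dyes and a mixture lets pools oppose each other, so the direction was kept.

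Blank pool 2 lay 1.51 to 4.00 above the mean of the other blanks, with a median of 2.43 on the log2 scale (5.40-fold). In 108 members the step was at least 2, and in 39 at least 3. Just inside the threshold were DM07149P1 (1.51), DM08520P1 (1.52) and DM00902P2 (1.53). Just outside were DM04389P1 (1.47), DM08851P1 (1.46) and DM02815P1 (1.46). A further 3 probes had a step of at least 1.5 but did not peak in blank pool 2. The same rule with another blank in the place of pool 2 found 11 probes for pool 1, 2 for pool 3 and 4 for pool 4.

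The members varied among the zinc pools as well as among the blanks, with a median SD of 1.30 over the blanks, 0.39 over ZnCl2 and 0.67 over ZnO, where all probes had 0.20, 0.21 and 0.23. Averaged over the 155 probes, the blanks read -0.52, 1.63, -1.28 and -0.69 in pools 1 to 4, the ZnCl2 pools 0.50, -0.09, -0.23 and -0.32, and the ZnO pools -1.31, -0.16, -0.30 and -0.25. ZnO pool 1 lay as low as blank pool 3, and ZnCl2 pool 1 was the highest after blank pool 2. Above 0 were 143 members on ZnCl2 pool 1, 15 on ZnO pool 1 and 1 on blank pool 3. The 3 other ZnO pools and ZnCl2 pools 2 to 4 lay close together, between -0.32 and -0.09. Group means over the 4 arrays were -0.22 ± 1.27 (SD) for blank, -0.03 ± 0.37 for ZnCl2 and -0.51 ± 0.54 for ZnO. From lowest to highest pool the members' mean ranged over 2.91 in blank, 0.81 in ZnCl2 and 1.15 in ZnO. Each range was wider than the distance between any group means, and the rule itself widens that of the blanks.

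The choice did not set the place of ZnO pool 1. This array read lowest of the 4 ZnO arrays in 130 members (83.9%), against 23.6% of all probes. The members' mean in ZnO pool 1 minus that of the other ZnO pools was -1.07, and in 138 members the difference was negative. After quantile normalization, with 85 members, it was -0.57, and with a step of at least 1, with 254 members, it was -0.55. At -2 or lower were 41 members on ZnO pool 1 and 1 on any other zinc array. Values this low also occurred on other zinc arrays outside the members. The probes that meet the limit of the second clause averaged -2.86 in ZnCl2 pool 2 and -2.22 in ZnO pool 4. Over the whole table, 141 probes read more than 1 below both ZnO pool 2 and ZnO pool 3 on this array. Of these, 67 were members (43.2% of the members) and 64 belonged to the 122 probes that meet the limit of the second clause, the probes that collapse in ZnCl2 pool 2 and ZnO pool 4. When ZnO pool 4 also had to lie more than 1 higher, 68 probes were left in the table and 65 of them were members. The other 3, named here after their values were seen, were DM01714P2, DM02665P1 and DM06709P1. The condition on ZnO pool 4 works against the collapsing probes, which are defined in part by low values there. The share of members among the 68 is therefore a description.

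The rule keeps the 122 collapsing probes (2.83% of all probes) out of the members, though it had 0 to leave out. The members and the collapsing probes shared the low reading on ZnO pool 1, where they averaged -1.31 and -1.54. They parted on the arrays that define the collapse: the collapsing probes averaged -2.86 in ZnCl2 pool 2 and -2.22 in ZnO pool 4, the members -0.09 and -0.25. In blank pool 3 the collapsing probes averaged 0.53 and the members -1.28. Both lists were chosen on some of these arrays, so the values are a description.

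Blank pool 3 was the lowest blank in 130 members; it enters the mean that the rule uses, so this is a description. ZnCl2 pool 1 was the highest of the ZnCl2 arrays in 137 members (88.4%), against 30.5% of all probes. It lay more than 0.5 above each other ZnCl2 pool in 76 members (49.0%) and in 5.79% of all probes. ZnCl2 pool 3, which no clause of the rule uses, differed from the mean of the other ZnCl2 pools by -0.26, less than the SD of 0.37 over the ZnCl2 arrays. Blank pool 3 was hybridised in Cy5, and ZnCl2 pool 1, ZnO pool 1 and blank pool 2 in Cy3, so high and low pools occurred within the Cy3 arrays. The members averaged above 0 only on blank pool 2 and ZnCl2 pool 1, both Cy3. On every Cy5 array they averaged below 0, from -1.28 to -0.23, as they did on the other Cy3 arrays. The part of the dye in these array means was not tested. ZnCl2 pools 1 and 2 share the dye Cy3 and read 0.50 and -0.09.

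Whether the probes move together was checked on the 8 zinc arrays after removing the mean of each zinc group. The median Pearson correlation over the 11935 pairs of members was 0.71, and the quartiles were 0.35 and 0.87. From the 5th to the 95th percentile the pairs ran from -0.26 to 0.96. Over all pairs of probes in the table the median was 0.01. A correlation over 0.5 was reached by 68.1% of member pairs and by 19.8% of all pairs. The 8 arrays share 1 reference, and the pairs are not independent, so these values describe the arrays and carry no p. Without ZnO pool 1, which held 43.4% of the members' variance within the zinc groups, the median correlation was 0.51; without any 1 of the other zinc arrays it was 0.71 to 0.76. Against the mean of the other members over all 12 arrays, which include the blanks that chose them, 73 members correlated at 0.9 or more, the median was 0.90 and the lowest was 0.32. Over the 8 zinc arrays alone, with group means kept, 64 members reached 0.9. The median there was 0.87, the lowest was -0.15 and 6 members lay below 0.

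Members with a larger step in blank pool 2 also read lower in ZnO pool 1 and blank pool 3. The 52 members with the smallest steps (1.51 to 2.05) averaged -0.36 in ZnO pool 1, and the 52 with the largest (2.83 to 4.00) averaged -2.09. The lowest set holds all 13 members that are described below for their dye difference, and its other 39 averaged -0.78, a value computed after seeing the data. The 51 between them averaged -1.49. Over the same sets the other 3 ZnO pools differed little, at -0.15, -0.33 and -0.24 in that order. Blank pool 3 averaged -0.89 in the lowest set and -1.85 in the highest, but it enters the step itself. ZnCl2 pool 1 showed no steady order over the sets: it averaged 0.63 in the lowest, 0.40 in the middle and 0.46 in the highest. The 13 members with a dye difference, all in the lowest set, averaged 1.19 on that array.

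The member with the largest step was DM06381P1. It read -1.43, 1.83, -3.28 and -1.79 in blank pools 1 to 4. The ZnCl2 pools read 0.76, 0.08, -0.05 and -0.26 and the ZnO pools -3.15, -0.44, -0.13 and 0.23. Blank pool 3 and ZnO pool 1 were thus about equally low, while blanks 1 and 4 lay under every zinc pool but ZnO pool 1. DM02109P1 had the same shape, with blanks of -1.54, 1.56, -2.84 and -1.32, ZnCl2 pools of 0.70, 0.34, 0.18 and -0.13 and ZnO pools of -2.90, -0.18, -0.07 and 0.06. Of the members with the 10 largest steps, DM01876P1, DM01830P1, DM02902P2, DM05963P1, DM01763P4 and DM06314P1 also had ZnO pool 1 lowest of the ZnO arrays, at -2.94 to -1.78. DM04077P2 had the highest ratio of any member, 3.02 in blank pool 2, and a mild fall to -1.14 in ZnO pool 1. DM05875P1 differed in that all its zinc pools were low, from -3.38 in ZnO pool 1 to -0.25 in ZnCl2 pool 1.

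The members spread widely over the zinc arrays, by 0.44 to 4.09 from lowest to highest pool (median 2.02, against 0.65 over all probes). DM02265P4 spread most, with 0.42, -0.55, -1.33 and -1.21 in ZnCl2 and -3.67, -0.99, -0.29 and -0.43 in ZnO. Its ZnO pool 1 was the lowest member value on any array. DM02106P1 followed, at -3.56 in ZnO pool 1 and 0.46 in ZnCl2 pool 1. At the other end, DM08376P1 (range 0.44), DM02987P1 (0.50) and DM11875P2 (0.64) were nearly flat over the zinc arrays. DM11875P2 read 2.59 in blank pool 2 and -0.60 to -0.43 in the other blanks, so a large step did not always come with a fall in ZnO pool 1, where it read -0.82.

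Some members read high with Cy3 in every group. A limit of 1, set after seeing the values, on the Cy3 minus Cy5 difference of the 8 zinc arrays picked 13 members, with differences of 1.23 to 2.38. DM00576P2 had blanks of 1.25, 1.35, -1.40 and -1.49, ZnCl2 pools of 1.54, -0.05, -1.32 and -1.35 and ZnO pools of 1.69, 1.62, -0.94 and -1.10. It was high in every Cy3 pool but ZnCl2 pool 2, and low in every Cy5 pool. DM04815P2, DM05545P2 and DM02933P3 belong to the same 13. In these 13 probes blank pool 2 lay only 0.42 (median) above blank pool 1, which carries the same dye, and at least 1.5 above it in 0 of 13. In the other 142 members the median was 2.35, and 130 of 142 reached 1.5.

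On average the 13 read 0.59, 1.15, -1.21 and -1.34 in blank pools 1 to 4, 1.19, 0.15, -0.91 and -0.82 in the ZnCl2 pools and 0.91 and 1.13 in ZnO pools 1 and 2; ZnO pool 3 read -0.76 and pool 4 was lower. Their Cy3 pools were all above 0 and their Cy5 pools all below. The other 142 averaged -0.63, 1.67, -1.28 and -0.63 in the blank pools, 0.43, -0.11, -0.17 and -0.27 in the ZnCl2 pools and -1.51, -0.28, -0.26 and -0.18 in the ZnO pools. Among their Cy3 pools, blank pool 2 and ZnCl2 pool 1 were high and ZnO pool 1 and blank pool 1 low. The 13 had small steps, from 1.53 to 2.05, and the zinc arrays chose them, so their zinc values are a description.

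The dye difference was tested in the 8 zinc arrays alone with limma, a linear model with moderated variances across probes, and p-values adjusted over all 4318 probes by the Benjamini-Hochberg method. Of the 155 members 16 passed (limma adjusted p under 0.05), where 23% of all probes did. All 16 (10.3%) read higher in Cy3, a direction in which 15.1% of all probes were called. DM04815P2 differed by 2.03 ± 0.27 (SE, adjusted p = 0.00406) and DM00576P2 by 2.38 ± 0.32 (adjusted p = 0.00413). With each probe's zinc dye difference taken out of every array first, a setting chosen after seeing the data, the rule found 142 probes, 135 of them among the 155.

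In 3 members, chosen after their values were seen, the blanks other than pool 3 were all high and nearly all zinc pools low. DM07014P1 read 0.72, 2.11, -0.67 and 1.15 in the blanks, between -0.89 and -0.30 in ZnCl2 and between -1.09 and -0.52 in ZnO. DM06490P2 read 0.41, 1.86, -0.74 and 1.20 in the blanks, and DM09557P1 0.35, 2.22, -1.07 and 1.23. In both, ZnCl2 pool 3 stood out among the zinc pools, at 0.37 and 0.51, while the other zinc pools lay between -1.71 and -0.90. Blank pool 3 lay within the range of the zinc pools in all 3 probes, and in DM09557P1 so did blank pool 1.

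The groups were compared in limma over all 12 arrays, in a model with group means and a term for dye. Against the blank the rule used the control arrays, and a step of at least 1.5 within them widens the error of every member: their median residual SD was 0.87, against 0.17 over all probes. With ZnO, 1 of the 155 members passed an adjusted p of 0.05, where 8.89% of all probes did, and 10 had an unadjusted p under 0.05, where 25.4% of all probes did. With ZnCl2, 1 member passed, where 9.01% of all probes did, and 14 had an unadjusted p under 0.05, where 22.7% of all probes did. In the Cy5 arrays alone, which leave out blank pool 2, 9 members (5.81%) passed with ZnO and 16 (10.3%) with ZnCl2, where 0.880% and 1.48% of all probes did. Without blank pool 2, 4 members (2.58%) passed with ZnO and 28 (18.1%) with ZnCl2, where 6.09% and 7.27% of all probes did. Both comparisons share the blanks that chose the members, and nothing is read from these counts. The median difference was -0.34 for ZnO against blank (47 members higher, 108 lower) and 0.11 for ZnCl2 against blank (87 higher, 68 lower), with a median SE of 0.55. Over all probes the median differences were 0.00 for both.

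The member called with ZnO was DM07014P1, described above. Blanks averaged 0.83 ± 1.15 (SD, n = 4) and ZnO pools -0.74 ± 0.25, a difference of -1.56 (SE 0.43, limma adjusted p = 0.0492), and ZnCl2 pools averaged -0.61 ± 0.24, a difference of -1.44 (limma adjusted p = 0.0664). Its blank pool 3, at -0.67, lay within the range of the ZnO pools. The call against ZnO was lost with no dye term, within either dye, with array weights, with a robust variance prior, with the replicate block and without any 1 array other than blank pool 3 (adjusted p 0.0520 to 0.427). The member called with ZnCl2 was DM01860P4. Its blanks read -0.79, 0.51, -1.15 and -1.31, its ZnCl2 pools 0.68, 0.56, 0.16 and 0.21 and its ZnO pools 0.06, 0.31, -0.00 and -0.22. It differed by 1.09 from the blank in ZnCl2 (SE 0.26, limma adjusted p = 0.0264) and by 0.72 in ZnO (limma adjusted p = 0.106). Blank pool 2 overlapped with the ZnCl2 pools. This call was lost with no dye term, in the Cy3 arrays alone, and without blank pools 1, 3 or 4 or ZnCl2 pools 1, 3 or 4 (adjusted p 0.0545 to 0.451). Without blank pool 2 the difference was 1.42 (limma adjusted p = 4.08e-05). The rule chose the members by that array, so nothing is read from this value.

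The members with the highest zinc over blank readings were DM07986P1, DM04344P1 and DM01138P4. DM07986P1 had blanks of -2.55, 0.20, -3.53 and -2.39, ZnCl2 pools of 0.70, 0.46, 0.63 and 0.55 and ZnO pools of -1.73, 0.19, 0.49 and 0.63. Blank pool 2 lay here below all ZnCl2 pools, and ZnO pool 1 lay with the low blanks. The difference for ZnCl2 was 2.65 (SE 0.74, limma adjusted p = 0.0519) and did not pass. DM04344P1 had a difference of 1.80 for ZnCl2 (SE 0.52, limma adjusted p = 0.0596), and DM01138P4 one of 1.93 (SE 0.64, limma adjusted p = 0.0961). All 3 had ZnO pool 1 lowest of the ZnO arrays, at -1.73, -1.15 and -1.70.

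The difference between ZnO and ZnCl2 uses no blank, but its error does, because the groups shared an estimate of the spread in the fit. The step that chose the members widened that error, with a median residual SD of 0.87 against 0.17 over all probes. In limma 0 members passed, as did 0% of all probes, and 0 members had an unadjusted p under 0.05, against 5.7% of all probes. The rule thus limited the members' counts, and nothing is read from them. Without blank pool 2, 0 members passed as well, as did 0% of all probes. The members' differences had a median of -0.48, with 146 lower in ZnO and 9 higher, against a median of -0.02 and 55.8% lower over all probes. The members' median 95% half-interval was 1.22, against 0.26 over all probes, and for 17 of 155 the interval lay within 1 on either side of 0. These widths include the spread of the blanks. The smallest unadjusted p-values were those of DM00576P2, with a ZnO minus ZnCl2 difference of 0.62 (95% interval from -0.01 to 1.24), DM02933P3, with 0.75 (from -0.10 to 1.60), and DM06314P1, with -1.24 (from -2.76 to 0.28). All 3 had a limma adjusted p of 0.841. The low ZnO pool 1 and the high ZnCl2 pool 1 both enter the members' difference between ZnO and ZnCl2. Over the members, ZnO pools 2 to 4 averaged -0.16, -0.30 and -0.25, and ZnCl2 pools 2 to 4 averaged -0.09, -0.23 and -0.32. The part of the 2 outlying pools in the difference was not tested.

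Among the other probes, 15 correlated at 0.9 or more with the mean of the members over the 12 arrays, and 14 of them had a step in blank pool 2 of at least 1. The closest were DM03465P1 (0.97), DM06323P1 (0.95), DM14252P1 (0.95), DM12816P1 (0.93) and DM09081P2 (0.92). In ZnO pool 1 minus the mean of the other ZnO pools, these 5 lay between -0.96 (DM06323P1, with a step of 1.41) and -0.28 (DM12816P1, with a step of 1.02). Blank pool 2 weighs most in these correlations.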

How the data were processed

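Log2 ratios of 4318 probes on 12 arrays were used as deposited by the authors, with no missing value. Per the submitters' processing notes limma was used, with no version named. How background was corrected, how arrays were normalized and how probes were selected: not given in the sources used here. Without intensities, signal over background could not be given, and the number of arrays limits the precision. Groups and replicate numbers came from the labels' titles.

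Members were found by the rule given above. The members, lists and limits were chosen with earlier results of these data known. Comparisons were fitted on the whole table with lmFit and eBayes of limma 3.58.1 under R 4.3.3, using group means and a dye term (8 residual degrees of freedom), and two-sided p-values were adjusted over all probes. The fit was also run on simulated data with independent noise for each probe and array. The members vary together, so nothing is read from that run for them. Other values were computed in Python 3.11.15 with pandas 2.3.3. Probes were named by the size of the step, closeness to the threshold, the smallest p-values, the widest and narrowest zinc range, zinc over blank, likeness to the other members and level in ZnO pool 1. Residuals of same-numbered arrays correlated above 0.1 in 1 of 12 pairs, blank pool 1 with ZnO pool 1 (0.45), and the lowest value was -0.62. Replicate numbers were not taken as a pairing. Whether same-numbered pools shared a batch was not tested. Gene lists and sequences were not used, as no probe has a name here.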

Additional observations from a re-analysis of the deposited data

Results flagged for a closer look

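Groups of 4 zinc arrays were examined for the mean of the members and for each named member, 60 groups in all, and in 7 of them 1 array lay further from the rest than Dixon's 95% limit allows. Chance flags about 1 in 20 groups of values not chosen beforehand, but some probes were named for their zinc values, and DM02106P1 for its level in ZnO pool 1, so the number of such groups is not read against chance. The blanks were left out, since the rule ranks them, and the groups share arrays and so are not independent. For the mean of the members, ZnO pool 1 stood at -1.31 and the other ZnO pools at -0.30 to -0.16, a gap of 0.873 of the range. The same array was apart for DM02109P1 (gap 0.921 of the range; -2.90 against -0.18 to 0.06), DM02106P1 (0.845; -3.56 against -0.67 to -0.14) and DM01763P4 (0.840; -2.45 against -0.38 to 0.02). In ZnCl2, pool 3 was apart for DM06490P2 (0.918; 0.37 against -1.29 to -1.16) and DM09557P1 (0.848; 0.51 against -1.23 to -0.97), and pool 1 for DM01876P1 (0.841; 0.34 against -0.56 to -0.41).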

How the results depend on the processing

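The number of members (155) was 254 with a step of at least 1, 85 after quantile normalization, and 11, 2 and 4 with blank 1, 3 or 4 in the place of blank 2. Members called for ZnO against blank (1) numbered 0 with no dye term, 0 in the Cy3 arrays, 9 in the Cy5 arrays, 0 with a robust prior, 0 with the replicate block, 3 at an adjusted p under 0.1 and 0 to 4 without single arrays. For ZnCl2 against blank (1) they numbered 0 with no dye term, 0 in the Cy3 arrays, 16 in the Cy5 arrays, 10 with array weights, 5 after quantile normalization, 5 at an adjusted p under 0.1 and 0 to 28 without single arrays. Both highest leave-one-out counts came without blank pool 2. Over all probes 38 (0.880%) were called for ZnO and 64 (1.48%) for ZnCl2 in the Cy5 arrays, and 263 (6.09%) and 314 (7.27%) without blank pool 2. With array weights 546 probes (12.6%) were called for ZnCl2, and 355 (8.22%) after quantile normalization. For ZnO, 3.84% of all probes were called with no dye term, 1.16% in the Cy3 arrays and 8.62% with a robust prior. The ZnO share was 6.21% with the replicate block and 16.2% at an adjusted p under 0.1. For ZnCl2 the shares were 4.42% with no dye term, 2.04% in the Cy3 arrays and 13.6% at an adjusted p under 0.1. With the replicate block the ZnCl2 count stayed at 1, where 6.60% of all probes were called. The replicate numbers were not taken as a pairing, so nothing is read from this count. ZnO against ZnCl2 gave 0 members in all 21 alternatives, and 0 of all probes. The blanks entered the error of this comparison too, so nothing is read from the members' count. The median correlation of 0.71 was 0.45 with a step of at least 1, 0.51 after quantile normalization and 0.51 to 0.76 without single zinc arrays. The gap of ZnO pool 1 (-1.07) kept its sign in all 9 alternatives, from -1.45 with a step of at least 2 to -0.55 with a step of at least 1, and was -0.57 after quantile normalization. The causes of these moves were not tested. The gap of ZnCl2 pool 3 (-0.26) was -0.44 to -0.03 without single arrays. Probe intensities were not used here, so how far ratios near the lower end are limited by background is unknown.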
